A study of Homo sapiens with 12 samples.

Results

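The immediate early genes of the AP-1 and EGR families were examined in the neuroblastoma line SK-N-SH. Their members were FOS, FOSB, JUN, JUNB, JUND, EGR1, EGR2, EGR3, IER2 and IER3. Every probe whose gene symbol in the array annotation was one of these 10 names was taken, whatever its value. This gave 9 of the 20046 genes named on the array, read by 10 of its 47323 probes, with 2 probes for EGR3 and 1 for each of the other 8 genes. EGR2 was not analysed here.

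Immediate early genes are transcribed within minutes of a stimulus, from factors already present in the cell, and their messages are short-lived. FOS and JUN proteins pair through leucine zippers into AP-1, which binds DNA and drives genes of growth, survival and invasion, while EGR1 is a zinc finger factor induced by the ERK branch of the MAP kinase cascade. In neuroblasts this cascade carries the signals of nerve growth factor and other neurotrophins, and AP-1 also responds to stress and DNA damage through JNK.

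Gene expression was measured with Illumina HT-12 v4 bead arrays on 12 RNA samples, 3 in each of 4 groups. DoxR-v cells were SK-N-SH cells made resistant to doxorubicin, a DNA-damaging anthracycline, by stepwise increases in dose, with intermittent vorinostat (SAHA in the labels), an inhibitor of histone deacetylases, at each logarithmic increase. DoxR cells were selected with doxorubicin alone, WT-v cells were parental cells that received vorinostat alone at the same times, and WT cells were the parental line without either drug. All groups shared the parental line and its growth medium. Each group was 1 line, so the effect of a drug and that of the selected line cannot be told apart. The labels and methods do not say that the 3 samples of a group were separate cultures, so p-values measure only the spread between these samples, which may be technical. Whether drug was present when RNA was collected is not given in the sources used here.

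Between 14969 and 17220 probes were detected per array, at a detection p-value below 0.01 against the array's negative controls. Arrays correlated at 0.982 to 0.992 within groups and at 0.936 to 0.971 between groups. Of 8 neuroblast markers read, all 8 were detected in DoxR-v, WT-v and WT cells and 7 in DoxR cells, where tyrosine hydroxylase (TH) was not detected. Of 6 mesenchymal markers, 3 (VIM, CD44 and SNAI2) were detected in DoxR-v, DoxR and WT cells and 2 (VIM and SNAI2) in WT-v cells, while FN1, PRRX1 and YAP1 were detected in none. The 2 Schwann cell markers and the 3 endothelial markers read were detected on no array, and of the 4 blood markers CD34 alone was detected, on 3 DoxR arrays and 1 WT-v array. Of 3 epithelial markers EPCAM alone was detected, on 3 DoxR-v, 2 DoxR and 1 WT-v arrays. In bulk samples, fewer cells of a type and less RNA per cell cannot be told apart.

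The 250 bases before the start of 5 members are printed first. FOS, JUNB, JUND and EGR1 are shown because the differences below turned on them, and JUN because it is the partner of FOS in AP-1 and was called in no comparison. Sequences were taken from RefSeq promoters (GRCh38.p14) and run 5′ to 3′ on the strand of the gene. Capitals mark the motifs searched, read on both strands. These were the CArG box (the binding motif of serum response factor, SRF), TGACGTCA and its core TGACGT (the cyclic AMP response element, bound by CREB and ATF factors; the core overlaps the full motif), TGACTCA (the AP-1 motif), TGACATCA (the AP-1-like motif of JUN), GCGGGGGCG and GCGTGGGCG (EGR motifs) and TATAAA (the TATA box). FOS lay at chr14:75278578-75278827 (plus strand), JUNB at chr19:12791236-12791485 (plus), EGR1 at chr5:138465229-138465478 (plus), JUND at chr19:18281623-18281872 (minus) and JUN at chr1:58784048-58784297 (minus).
FOS: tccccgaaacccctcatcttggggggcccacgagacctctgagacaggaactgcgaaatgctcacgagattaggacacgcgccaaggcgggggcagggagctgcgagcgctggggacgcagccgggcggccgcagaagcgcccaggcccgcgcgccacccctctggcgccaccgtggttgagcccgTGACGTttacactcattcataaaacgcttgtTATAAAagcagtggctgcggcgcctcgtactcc
JUNB: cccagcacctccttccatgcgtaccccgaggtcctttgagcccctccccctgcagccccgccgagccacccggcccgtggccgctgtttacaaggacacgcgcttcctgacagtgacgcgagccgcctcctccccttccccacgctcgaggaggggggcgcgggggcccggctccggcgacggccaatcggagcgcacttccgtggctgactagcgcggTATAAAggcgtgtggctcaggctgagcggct
EGR1: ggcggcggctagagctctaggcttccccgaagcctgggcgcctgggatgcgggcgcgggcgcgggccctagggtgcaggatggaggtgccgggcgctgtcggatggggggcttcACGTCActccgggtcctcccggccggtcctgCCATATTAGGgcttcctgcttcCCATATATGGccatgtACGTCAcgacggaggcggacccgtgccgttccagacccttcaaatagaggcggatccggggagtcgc
JUND: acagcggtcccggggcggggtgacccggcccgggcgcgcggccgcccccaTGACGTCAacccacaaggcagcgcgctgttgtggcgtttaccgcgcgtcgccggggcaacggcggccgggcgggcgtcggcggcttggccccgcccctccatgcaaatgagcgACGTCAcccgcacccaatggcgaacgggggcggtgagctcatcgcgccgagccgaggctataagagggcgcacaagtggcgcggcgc
JUN: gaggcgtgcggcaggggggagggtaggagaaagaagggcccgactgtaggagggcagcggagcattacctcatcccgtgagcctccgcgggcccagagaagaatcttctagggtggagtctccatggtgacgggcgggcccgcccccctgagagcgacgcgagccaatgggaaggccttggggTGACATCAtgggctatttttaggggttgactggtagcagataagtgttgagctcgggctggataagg

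The promoters of FOSB and IER2 were searched as well, and those of the remaining members were not read. Within the 250 bases searched in each of the 7 promoters, the CArG box was present in EGR1 alone, at -105 to -96 and -83 to -74 from the start. The share of all 35116 promoters with a CArG box in this window was 1.16%. TGACGT was present in FOS (-64 to -59), FOSB, JUND and EGR1, against 7.1% of all promoters. JUND held it within a full TGACGTCA, which 1.65% of promoters carried, and also apart from it at -87 to -82. JUN held TGACATCA, found in 2.37% of promoters. TATAAA was present in FOS, FOSB and JUNB, against 10.7% of all promoters. None of the 7 held TGACTCA, GCGGGGGCG or GCGTGGGCG, which were present in 4.2%, 4.72% and 0.72% of promoters. A match is a description of these letters and not of a bound site. Bases further upstream were not searched, so the absence of a motif, as of the CArG box in FOS, holds for this window alone.

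Levels are given as log2 of the background-corrected, quantile-normalized signal, and levels of different probes are not set against each other. Of the members, JUN, JUNB, JUND, EGR1, IER2 and IER3 were detected on all 12 arrays. FOS was detected on 7 arrays, namely all 3 DoxR-v, all 3 DoxR and 1 WT-v array, and on no WT array. FOSB, a further FOS family subunit, and EGR3, an EGR factor of neurons and muscle, were detected on 0 of 12 arrays by any of their probes. These 3 probes were left out of the tests, and 7 member probes were tested among 21609. The FOSB probe lay between 4.39 and 5.01 and the EGR3 probes between 4.26 and 4.52 on every array, which are levels at the negative controls. With no detection filter none of their 18 differences over the 6 comparisons was called (-0.22 to 0.18).

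**Figure D1:**
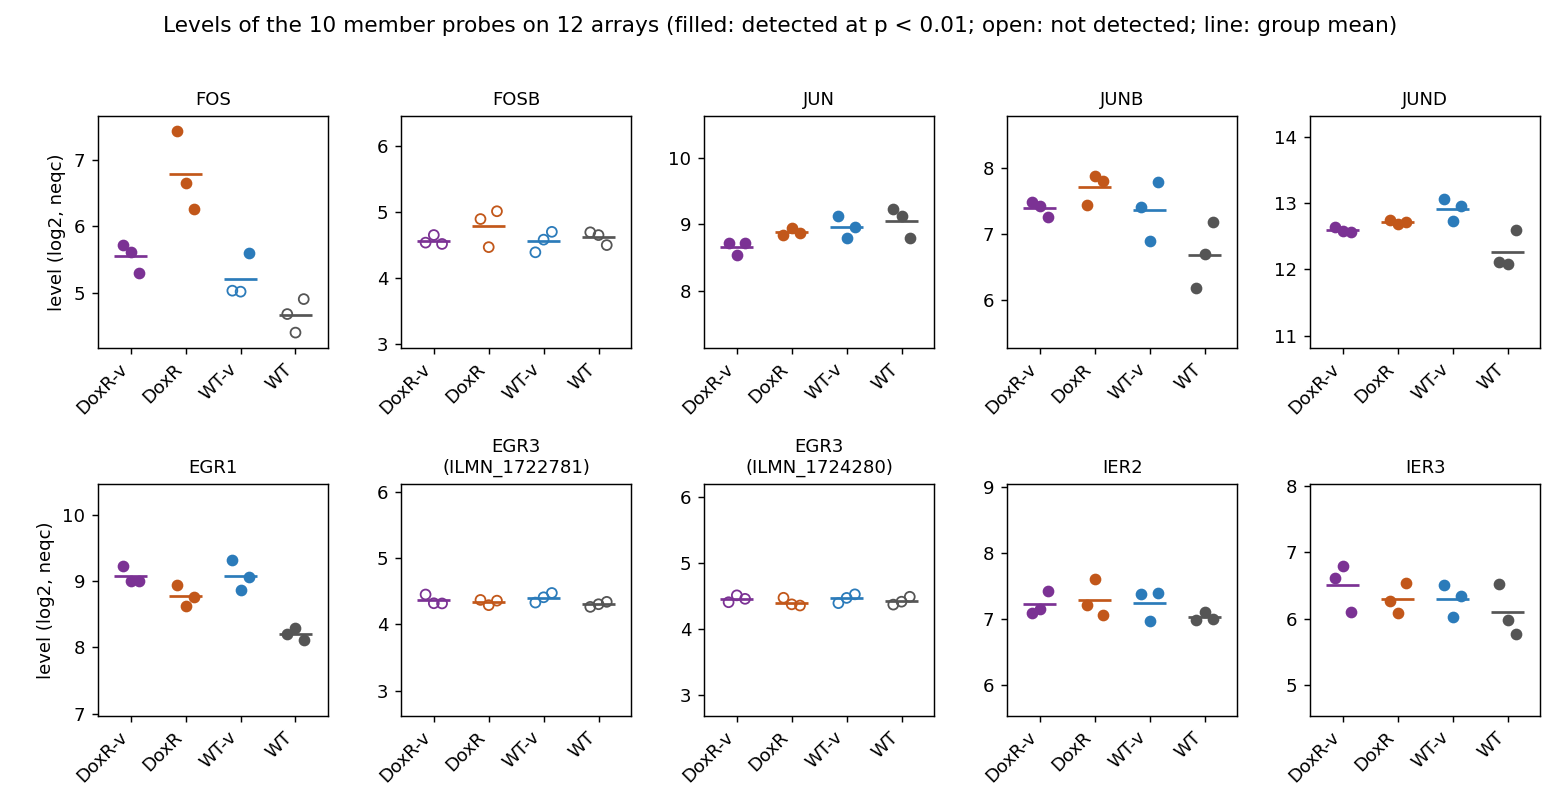
Level of each member probe (log2, vertical axis, an equal span in every panel) on the 12 arrays by group. Filled points are detected arrays, open points are arrays where the probe was not detected, and lines are group means; FOS stood highest on the DoxR arrays, and EGR1 stood lowest on the WT arrays.

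In doxorubicin-resistant cells compared with parental cells, FOS and JUNB were higher, which places 2 of the 7 tested member probes past the threshold used (adjusted p below 0.1 with a fold change of more than 1.5, as in the methods of the study). Both moved upward, where 15.2% of all probes were called higher and 14.5% lower. With the authors' normalized values both missed the required fold change (FOS 0.51 and JUNB 0.43, log2, in place of 2.1 and 1.02). FOS, the AP-1 subunit that needs a JUN partner to bind DNA, measured 7.44, 6.65 and 6.27 in DoxR cells, against 4.68, 4.40 and 4.90 in WT cells. All DoxR arrays lay above all WT arrays, and the spread among DoxR arrays was wide (SD 0.60). Since FOS was not detected in WT cells, its fold is a bound, at least 2.60-fold higher in DoxR cells. The adjusted p of 3.26e-05 belongs to the unbounded limma difference of 2.1 (log2). The non-normalized FOS signal averaged 181 ± 49.3 in DoxR cells and 91.6 ± 11 in WT cells (SD, n = 3 each).

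JUNB, a JUN family protein that often restrains JUN, measured 7.43, 7.88 and 7.81 in DoxR cells, against 6.19, 6.70 and 7.18 in WT cells. The groups did not overlap, although WT replicate 3 lay close to the lowest DoxR array. The difference was 1.02 ± 0.25 (log2, SE; adjusted p = 0.00581), or 2.02-fold. JUND, the JUN protein that is expressed most steadily in resting cells, measured 12.74, 12.68 and 12.71 in DoxR cells, against 12.11, 12.08 and 12.60 in WT cells. It differed by 0.45 ± 0.15 (adjusted p = 0.0280), below the required fold change, which it passed without WT replicate 3 (0.62).

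EGR1 measured 8.94, 8.62 and 8.75 in DoxR cells, against 8.20, 8.29 and 8.12 in WT cells. The difference of 0.57 ± 0.14 (adjusted p = 0.00641) was 1.48-fold and just short of the threshold, and it passed without WT replicate 2 (0.61) or DoxR replicate 2 (0.64). In all, 4 of 7 member probes did not overlap between DoxR and WT arrays, against 49.8% of all probes. JUN, IER2 (a nuclear regulator of transcription) and IER3 (a survival factor of the ERK and NF-kappaB pathways) overlapped, with differences of -0.17, 0.26 and 0.20 and adjusted p of 0.381, 0.248 and 0.505. The JUN difference turned positive under median scaling, in which arrays were set to a common median in place of quantile normalization (0.098).

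In resistant cells selected with vorinostat compared with parental cells, EGR1, FOS and JUNB were higher, 3 of 7 member probes where 11.4% of all probes were called higher and 10.9% lower. EGR1 measured 9.22, 9.0 and 9.01 in DoxR-v cells, against 8.20, 8.29 and 8.12 in WT cells. Every DoxR-v array lay well above every WT array. The difference was 0.87 ± 0.14 (adjusted p = 0.000525), or 1.83-fold. FOS measured 5.73, 5.61 and 5.30 in DoxR-v cells, against 4.68, 4.40 and 4.90 in WT cells, where it was not detected. The call rests on a difference of 0.89 ± 0.26 (adjusted p = 0.0214) that uses WT levels below detection. As a bound it was at least 1.10-fold, short of the required fold change. The call was lost with an offset of 50 (0.45), without background correction (0.34) and with the authors' normalized values (0.16).

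JUNB measured 7.48, 7.42 and 7.26 in DoxR-v cells, against 6.19, 6.70 and 7.18 in WT cells. The gap between the lowest DoxR-v array and the highest WT array was narrow, and the difference of 0.70 ± 0.25 had an adjusted p of 0.0517. Without WT replicate 1 it was 0.44 (adjusted p = 0.210) and no longer called, and the call was also lost without DoxR-v replicate 1 (adjusted p = 0.131) or DoxR-v replicate 2 (adjusted p = 0.116). It was called in 6 of 11 other settings, and not without background correction (0.43), with an offset of 50 (0.54), with the authors' values (0.27), with no detection filter (adjusted p = 0.108) or at an adjusted p below 0.05. JUN was the 1 member with a lower level, at 8.73, 8.54 and 8.72 in DoxR-v cells against 9.24, 9.13 and 8.79 in WT cells. Its groups did not overlap, but the difference of -0.39 ± 0.14 (adjusted p = 0.0518) missed the fold change and turned to 0.045 under median scaling. JUND, IER2 and IER3 overlapped (0.33, 0.19 and 0.41), and IER3 was called without WT replicate 1 (0.63) or DoxR-v replicate 3 (0.61). Thus 4 of 7 member probes did not overlap between DoxR-v and WT arrays, against 41.1% of all probes.

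Parental cells given vorinostat alone also had higher EGR1, JUND and JUNB than untreated parental cells, 3 of 7 member probes where 13.2% of all probes were called higher and 11.6% lower. EGR1 measured 9.32, 8.87 and 9.06 in WT-v cells, against 8.20, 8.29 and 8.12 in WT cells. The groups lay apart, and the difference of 0.88 ± 0.14 (adjusted p = 0.000501) was 1.84-fold. JUND measured 13.06, 12.74 and 12.96 in WT-v cells, against 12.11, 12.08 and 12.60 in WT cells. The groups did not overlap, and the difference was 0.65 ± 0.15 (adjusted p = 0.00437), or 1.57-fold. Without WT replicate 1 or WT replicate 2 it was 0.58 or 0.56 and fell short of the required fold change.

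JUNB measured 7.40, 6.90 and 7.79 in WT-v cells, against 6.19, 6.70 and 7.18 in WT cells. These groups overlapped. The difference of 0.67 ± 0.25 (adjusted p = 0.0542) was called, but in only 2 of the 6 fits that left out 1 array. The adjusted p was 0.221 without WT replicate 1, 0.105 without WT replicate 2, 0.126 without WT-v replicate 1 and 0.220 without WT-v replicate 3. It was called in 5 of 11 other settings, and not without background correction (0.43), with an offset of 50 (0.53), with the authors' values (0.27), with no detection filter (adjusted p = 0.114), in a fit of the groups compared alone (adjusted p = 0.120) or at an adjusted p below 0.05. FOS measured 5.03, 5.01 and 5.60 in WT-v cells, against 4.68, 4.40 and 4.90 in WT cells. It was detected on the third WT-v array alone, and the difference of 0.55 ± 0.26 (adjusted p = 0.123) was not called, but passed without WT replicate 3 (0.68). JUN, IER2 and IER3 overlapped, with differences of -0.09, 0.22 and 0.20, of which that of JUN turned positive under median scaling (0.30). In total 3 of 7 member probes did not overlap, against 41.6% of all probes. The 3 comparisons with parental cells share the WT arrays and are therefore not independent of each other.

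**Figure D2:**
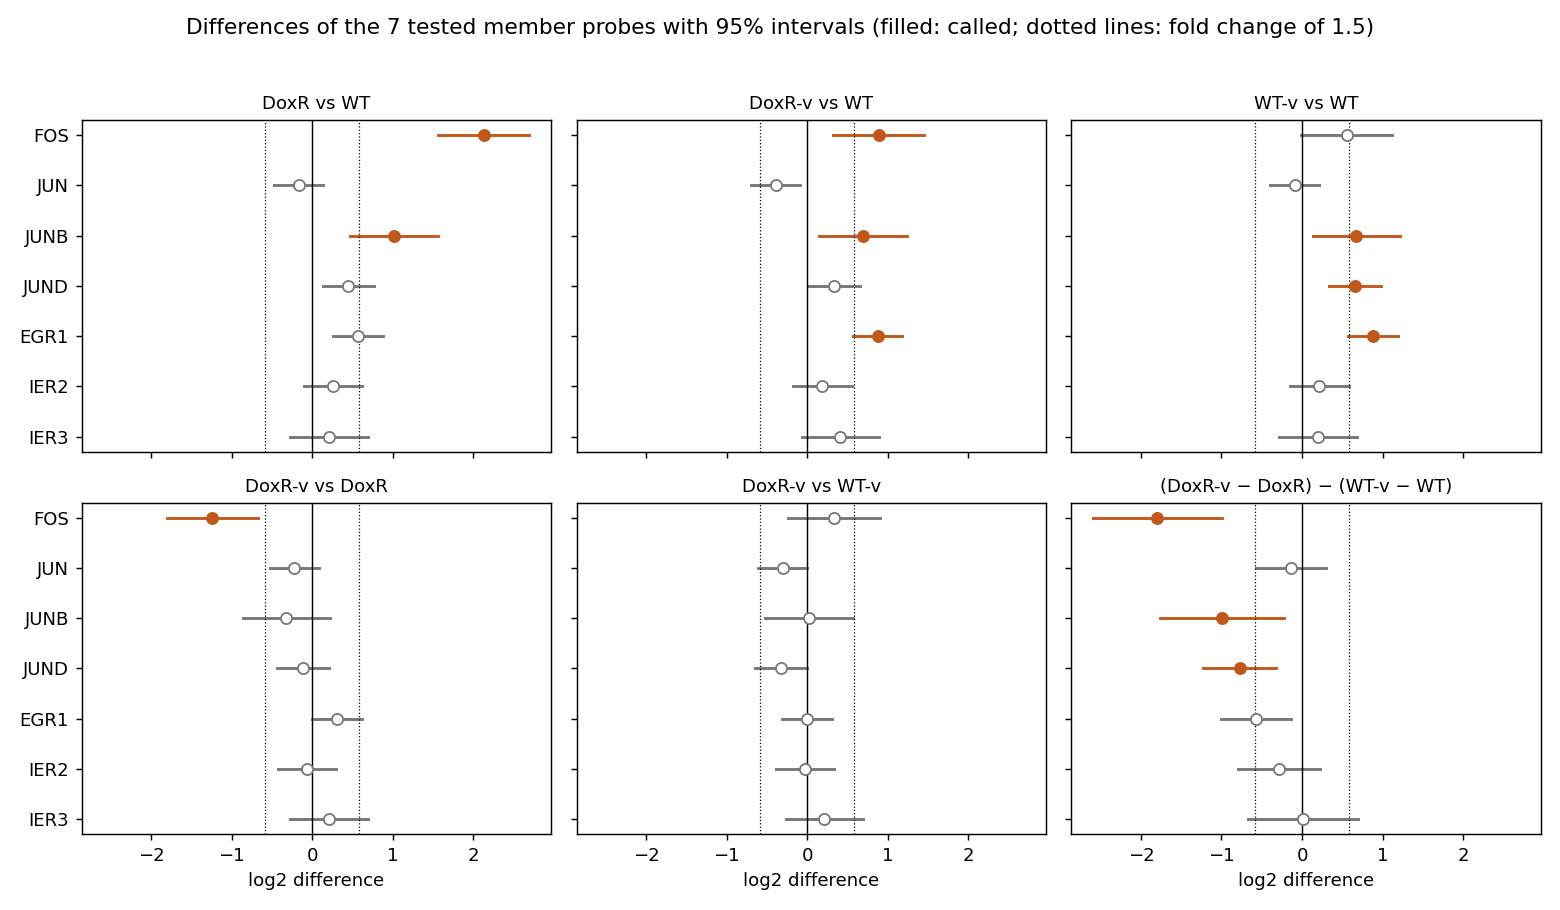
Difference of each tested member probe in the 6 comparisons (log2, horizontal axis) with its 95% interval; filled points were called and dotted lines mark a fold change of 1.5. FOS lay furthest above 0 of the members in DoxR vs WT, and furthest below 0 in DoxR-v vs DoxR (-1.24) and in the interaction (-1.79).

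Within the resistant cells, vorinostat during selection went with lower FOS, and 1 of 7 member probes was called, downward, where 12.3% of all probes were called lower and 12.6% higher. FOS measured 5.73, 5.61 and 5.30 in DoxR-v cells, against 7.44, 6.65 and 6.27 in DoxR cells. It was detected on all 6 arrays, and the groups lay apart. The difference was -1.24 ± 0.26 (adjusted p = 0.00244), with a 95% interval of -1.81 to -0.67. It was called in each of the 6 fits that left out 1 array (-1.5 to -0.91), and with the authors' normalized values it was -0.35 (adjusted p = 0.00974), short of the fold change.

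EGR1 measured 9.22, 9.0 and 9.01 in DoxR-v cells, against 8.94, 8.62 and 8.75 in DoxR cells. The groups lay apart in this direction opposite to FOS, but the difference of 0.31 ± 0.14 (adjusted p = 0.121) was not called. JUN and JUND also did not overlap, with DoxR-v below DoxR by small differences (-0.22 and -0.12), so that 4 of 7 probes were apart against 49.7% of all probes. The JUND difference was 0.0021 under median scaling. JUNB differed by -0.32 with overlapping groups, and its 95% interval of -0.86 to 0.22 takes in lower levels past the required fold change. IER2 differed by -0.07 and IER3 by 0.21.

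No member was called between resistant cells selected with vorinostat and parental cells given vorinostat. Of 7 member probes 0 passed the limma threshold under this or any alternative setting and 1 (JUND) had an unadjusted p below 0.05, with 0 to 2 under the alternatives, where 22.3% of all probes were called in either direction. EGR1 averaged 9.08 ± 0.13 in DoxR-v cells and 9.08 ± 0.22 in WT-v cells (SD, n = 3 each). The 95% interval of its difference ran from -0.31 to 0.30, which leaves room for a modest change either way. JUND measured 12.64, 12.58 and 12.56 in DoxR-v cells, against 13.06, 12.74 and 12.96 in WT-v cells, and JUN was likewise lower on every DoxR-v array. These 2 did not overlap (-0.32 and -0.30, adjusted p = 0.122 and 0.129), against 43.9% of all probes. FOS, JUNB, IER2 and IER3 overlapped (0.33, 0.02, -0.03 and 0.22).

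For FOS, JUNB and JUND the difference that went with vorinostat was not the same in resistant and parental cells, as held for a large share of all probes. The interaction, the DoxR-v minus DoxR difference less the WT-v minus WT difference, was called for FOS, JUNB and JUND, 3 of 7 member probes, all below 0, where 19.9% of all probes were called below 0 and 18.4% above. For FOS the DoxR-v minus DoxR difference was -1.24 and the WT-v minus WT difference 0.55, an interaction of -1.79 ± 0.37 (adjusted p = 0.00214) that rests in part on WT arrays where FOS was not detected. JUNB differed by -0.32 between DoxR-v and DoxR cells and by 0.67 between WT-v and WT cells (interaction -0.99 ± 0.36, adjusted p = 0.0429), and without WT-v replicate 3 this call was lost (-0.78, adjusted p = 0.109). JUND differed by -0.12 between DoxR-v and DoxR cells and by 0.65 between WT-v and WT cells (interaction -0.77 ± 0.21, adjusted p = 0.0112). Of these DoxR-v minus DoxR differences only that of FOS was called, and of the WT-v minus WT differences that of FOS was not. With the authors' normalized values the FOS and JUNB interactions were -0.45 and -0.43, short of the required fold change. The JUND interaction fell short (-0.46) with scaling over probes detected on all arrays, chosen after seeing the data. EGR1 had a mean higher by 0.31 in DoxR-v than in DoxR cells, which was not called, and by 0.88 in WT-v than in WT cells. Its interaction of -0.57 ± 0.20 (adjusted p = 0.0402) was short of the required fold change. That fold change was passed without WT, WT-v or DoxR replicate 2 or without DoxR-v replicate 1 (-0.62, -0.68, -0.65 and -0.65). On adjusted p alone 4 of 7 member probes passed, against 44% of all probes. JUN, IER2 and IER3 had interactions of -0.13, -0.28 and 0.01 and were not called.

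The members therefore ordered the groups in different ways. FOS ran from DoxR (6.79 ± 0.60) through DoxR-v (5.55 ± 0.22) and WT-v (5.21 ± 0.33) to WT (4.66 ± 0.25), and neither DoxR-v against WT-v nor WT-v against WT differed past the threshold. EGR1 had DoxR-v (9.08 ± 0.13) and WT-v (9.08 ± 0.22) at the top, then DoxR (8.77 ± 0.16), and WT (8.20 ± 0.09) at the bottom. JUNB was lowest in WT cells (6.69 ± 0.50) and lay between 7.36 and 7.71 in the other 3 groups, with no call among those compared. IER2 spanned 0.26 and IER3 0.41 between their highest and lowest group means, and neither was called in the 6 comparisons. Under median scaling IER2 was called against WT cells in DoxR-v (0.67) and WT-v cells (0.65), and IER3 in DoxR-v cells (0.81).

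The summed level of the mesenchymal markers ordered the groups as FOS did, but none of the 3 detected markers did so alone. The sum of the 6 markers ran from 3747 to 5354 on DoxR-v arrays, from 10348 to 11477 on DoxR arrays, from 3332 to 3888 on WT-v arrays and from 839 to 960 on WT arrays. The sums of DoxR-v and WT-v arrays thus overlapped, as FOS levels did between these groups. VIM averaged 11.27 in DoxR-v, 13.10 in DoxR, 11.66 in WT-v and 9.05 in WT cells, and so was higher in WT-v than in DoxR-v cells. SNAI2 was lowest in DoxR-v cells (6.41, against 7.05 in WT cells), CD44 was highest in DoxR-v cells (10.75), and FN1, PRRX1 and YAP1 were detected in no group. The part of these markers in the FOS result was not tested.

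**Figure D3:**
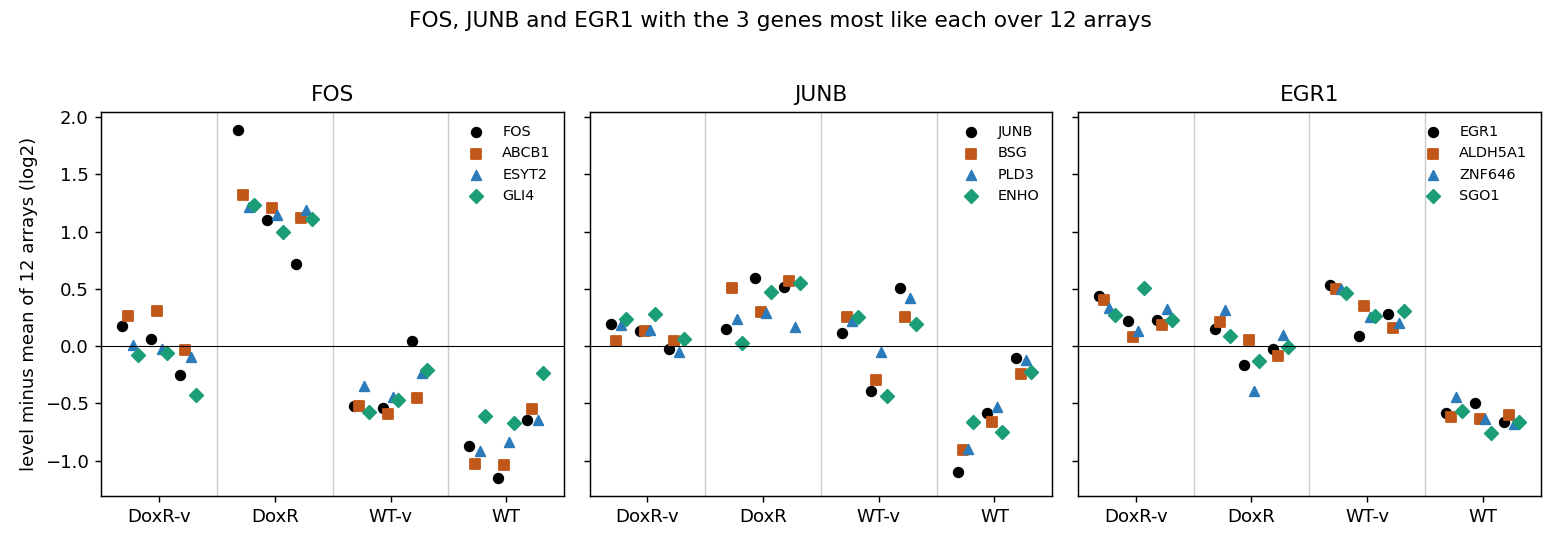
FOS, JUNB and EGR1 with the 3 genes nearest to each, as level minus the mean of the 12 arrays (log2, vertical axis), array by array in each group. ABCB1, ESYT2 and GLI4 stood high on the DoxR arrays with FOS, and all 4 genes of the EGR1 panel had their lowest mean in WT cells.

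The genes whose pattern over the 12 arrays was most like that of the 3 members with the widest range of group means were found by the root mean square difference of centred levels. For FOS these were ABCB1 (0.277), ESYT2 (0.283) and GLI4 (0.323). ABCB1, which encodes the drug efflux pump P-glycoprotein, had mean levels of 11.11 in DoxR-v, 12.15 in DoxR, 10.41 in WT-v and 10.06 in WT cells, and was detected on all 12 arrays. ESYT2 encodes a protein that tethers the endoplasmic reticulum to the plasma membrane, and GLI4, a zinc finger protein, was detected on 3 arrays only. For EGR1 the nearest genes were ALDH5A1 (0.125), ZNF646 (0.128) and SGO1 (0.138), and for JUNB they were BSG (0.185), PLD3 (0.185) and ENHO (0.187). These are descriptions over arrays that share 4 group means.

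The pathway around the members was read through 8 gene lists, with 1 probe per gene among 12093 tested genes. Of all genes 17.1% were called higher and 16% lower in DoxR vs WT, and 12.6% and 11.8% in DoxR-v vs WT. The shares were 14% and 12.3% in WT-v vs WT. In DoxR-v vs DoxR they were 14.3% and 13.9%. The median difference of all genes lay between 0.00 and 0.03 in these comparisons. Median scaling moved the median of all probes to 0.13, 0.26, 0.24 and 0.10 in the same order. Of 21609 probes, 4866 were then called higher and 1789 lower in DoxR vs WT, and 6035 and 884 in DoxR-v vs WT. For WT-v vs WT these were 5966 and 1073, and for DoxR-v vs DoxR 3785 and 1969. List counts under median scaling are to be read beside this shift. They are given where more genes were then called higher than lower, or as many, and the balance had been another. They are also given for the list of other immediate early genes in WT-v vs WT. Some calls in the lists are of probes detected on few or no arrays of the groups compared.

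**Figure D4:**
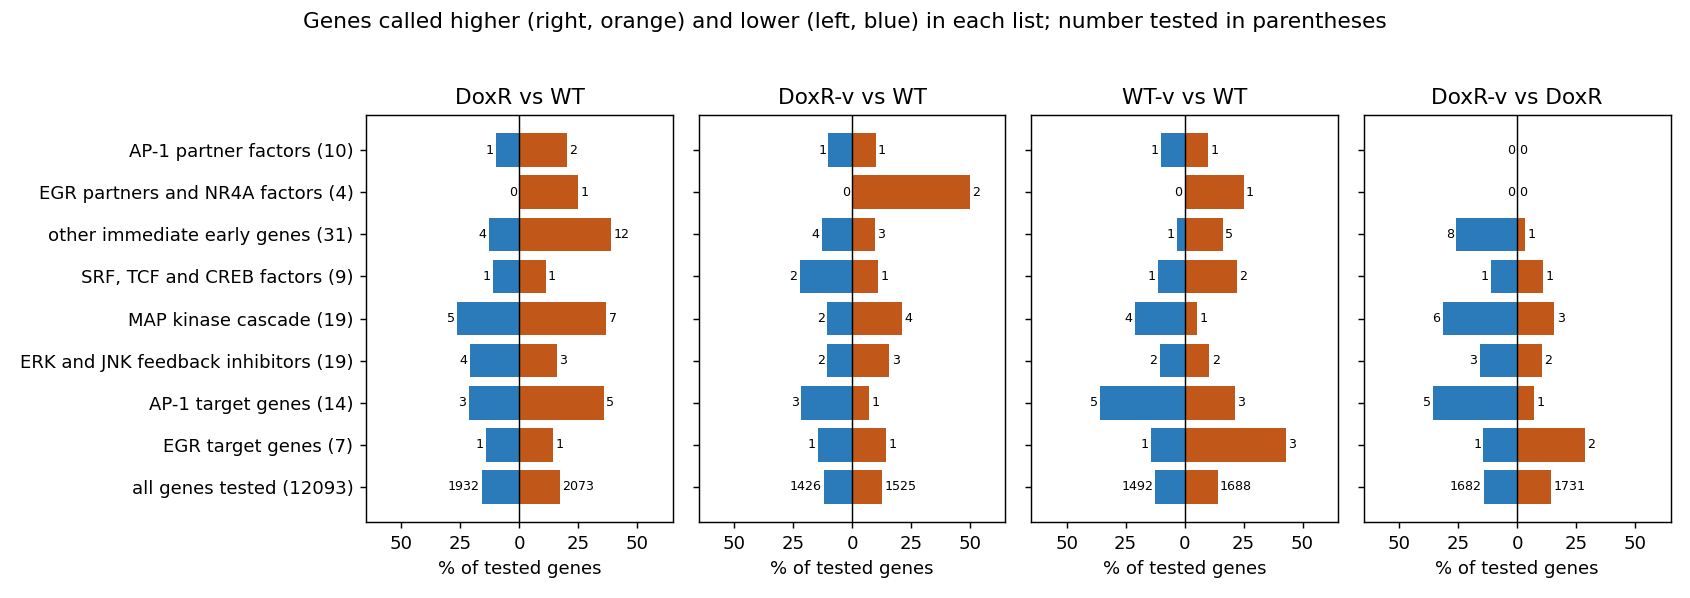
Share of the tested genes of each list called higher (orange, right) and lower (blue, left) in 4 comparisons (percent, horizontal axis), with counts beside the bars and all tested genes at the bottom. The other immediate early genes had 12 higher and 4 lower of 31 in DoxR vs WT, and 1 higher and 8 lower in DoxR-v vs DoxR.

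Other immediate early genes, 31 tested, were called higher for 12 and lower for 4 in DoxR vs WT (median 0.39). TRIB1, a pseudokinase that directs protein degradation, was higher by 1.48 (adjusted p = 4.76e-06), and ZFP36L2, which promotes decay of short-lived messages, by 0.87. PLK2, a kinase of the polo family, was at least 2.40-fold higher, while SGK1, a kinase of salt and stress responses, was lower (-1.04). In DoxR-v vs DoxR 1 was higher and 8 were lower (median -0.25), among them TRIB1 (-1.79), ZFP36L2 (-1.06) and ZFP36L1 (-1.04), and GEM, a small GTPase, was at least 2.16-fold lower. TRIB1 averaged 7.87 ± 0.29 in DoxR-v, 9.67 ± 0.02 in DoxR, 8.93 ± 0.03 in WT-v and 8.19 ± 0.15 in WT cells.

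In DoxR-v vs WT 3 of these 31 genes were higher and 4 lower (median -0.0013), with PLK2 at least 1.78-fold higher, ARC, a synaptic regulator, higher by 0.91, and KLF6 and ID1 lower (-0.59 and -0.64). Median scaling turned this balance to 11 higher and 0 lower. In WT-v vs WT 5 were higher and 1 lower, and 14 and 0 under median scaling. HES1, a repressor downstream of Notch, was at least 2.02-fold higher in WT-v cells, NFKBIZ at least 1.23-fold, and TRIB1 by 0.74.

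Among 10 tested AP-1 partner factors, 2 were higher and 1 lower in DoxR vs WT, 1 and 1 in DoxR-v vs WT (3 and 0 under median scaling), and 1 and 1 in WT-v vs WT (2 and 0). The limma fit called 0 in DoxR-v vs DoxR (2 at an unadjusted p below 0.05, and 1 called under median scaling), where MAF differed by 0.50 and was detected on 1 array. ATF3, a stress-induced repressor, averaged 7.36 ± 0.11 in DoxR-v, 7.24 ± 0.07 in DoxR, 7.75 ± 0.12 in WT-v and 8.23 ± 0.03 in WT cells, so that it lay opposite to FOS in the resistant cells (-0.87 in DoxR-v vs WT and -0.99 in DoxR vs WT). NFE2L2, the regulator of antioxidant genes, was higher in both (0.70 and 0.89). JDP2, a repressing partner of JUN, was higher in DoxR vs WT (0.70). In WT-v vs WT ATF2 was higher (0.72) and BATF3 lower (-0.77).

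Of the 4 tested EGR partners and NR4A factors, 1 was higher in DoxR vs WT, 2 in DoxR-v vs WT and 1 in WT-v vs WT, and none was lower. NAB1 and NAB2, which bind EGR proteins and repress them, were higher in DoxR-v vs WT (0.68 and 0.76, adjusted p = 0.00529 and 0.00662). WT1, a zinc finger factor with a motif close to that of EGR1, was higher in WT-v vs WT (0.76). NR4A2, an orphan nuclear receptor, passed in DoxR vs WT (0.76) but was detected on 1 of 3 DoxR arrays. The limma fit called 0 of this list in DoxR-v vs DoxR (1 at an unadjusted p below 0.05, and 0 called under median scaling), where the differences of NAB1 and NAB2 were 0.32 and 0.29 (adjusted p = 0.141 and 0.262).

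The 9 tested SRF, TCF and CREB factors, which bind promoters of immediate early genes, had 1 higher and 1 lower in DoxR vs WT, and 1 and 2 in DoxR-v vs WT (2 and 0 under median scaling). The counts were 2 and 1 in WT-v vs WT, and 1 and 1 between DoxR-v and DoxR cells (1 and 0 under median scaling). SRF itself averaged 9.19 ± 0.16 in DoxR-v, 9.53 ± 0.11 in DoxR, 9.97 ± 0.14 in WT-v and 9.79 ± 0.13 in WT cells, and was lower in DoxR-v vs WT (-0.60, adjusted p = 0.00415). ELK1, its ternary complex partner, was lower in DoxR-v vs WT (-0.71) and WT-v vs WT (-0.60). EP300, a histone acetyltransferase and coactivator, was higher in the same comparisons (0.65 and 1.32). MRTFB was higher in DoxR vs WT (1.11), where MRTFA was lower (-0.91).

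Of 19 tested genes of the MAP kinase cascade, 7 were higher and 5 lower in DoxR vs WT, and 4 and 2 in DoxR-v vs WT. The counts were 1 and 4 in WT-v vs WT (8 and 1 under median scaling), and 3 and 6 between DoxR-v and DoxR cells. RPS6KA5, the nuclear kinase MSK1 that phosphorylates CREB and histone H3, averaged 7.02 ± 0.13 in DoxR-v, 8.72 ± 0.08 in DoxR, 6.69 ± 0.06 in WT-v and 6.12 ± 0.11 in WT cells. It was thus higher in DoxR-v vs WT (0.89) and DoxR vs WT (2.60), and lower in DoxR-v vs DoxR (-1.70, adjusted p = 2.09e-07). RPS6KA2, a further ribosomal S6 kinase below ERK, averaged 6.59 ± 0.07 in DoxR-v, 7.58 ± 0.08 in DoxR, 8.16 ± 0.21 in WT-v and 8.85 ± 0.21 in WT cells. It was lower in DoxR-v vs WT (-2.27, adjusted p = 1.45e-07) and in WT-v vs WT (-0.69), and also in DoxR vs WT (-1.28) and DoxR-v vs DoxR (-0.99). The JNK genes MAPK8 and MAPK9 were higher in DoxR vs WT (1.67 and 1.31), and MAPK9 was lower in DoxR-v vs DoxR (-0.97). ARAF was lower in DoxR, DoxR-v and WT-v cells than in WT cells (-1.39, -1.12 and -1.22).

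Of 19 tested feedback inhibitors of ERK and JNK, 3 were higher and 4 lower in DoxR vs WT (4 and 2 under median scaling), and 3 and 2 in DoxR-v vs WT. The counts were 2 and 2 in WT-v vs WT (5 and 1 under median scaling), and 2 and 3 between DoxR-v and DoxR cells (6 and 3 under median scaling). DUSP6, the cytoplasmic phosphatase of ERK, averaged 9.09 ± 0.05 in DoxR-v, 9.13 ± 0.09 in DoxR, 6.04 ± 0.13 in WT-v and 6.04 ± 0.32 in WT cells. It was higher in both resistant lines (3.06 in DoxR-v vs WT and 3.09 in DoxR vs WT, adjusted p = 1.73e-08 and 6.86e-09). SPRY1, an inhibitor of receptor tyrosine kinase signalling, averaged 9.46 ± 0.04 in DoxR cells and was not detected in DoxR-v cells, where it was at least 17.9-fold lower than in DoxR cells. SPRY1 was also higher in WT-v vs WT (1.70), and DUSP4 and DUSP5 were lower there (-0.99 and -1.13).

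Of 14 tested AP-1 target genes, 5 were higher and 3 lower in DoxR vs WT, and 1 and 3 in DoxR-v vs WT (3 and 1 under median scaling). The counts were 3 and 5 in WT-v vs WT (4 and 4 under median scaling), and 1 and 5 between DoxR-v and DoxR cells. Some of these calls lie near background. MMP9, counted lower in DoxR vs WT and WT-v vs WT, was detected on 1 WT array and on no DoxR or WT-v array. SPP1, counted higher in DoxR vs WT, was detected on 1 DoxR array and on no WT array. GJA1, a connexin of gap junctions, was at least 8.65-fold higher in DoxR vs WT and at least 9.34-fold lower in DoxR-v vs DoxR, since it was detected in DoxR cells alone. CD44, a hyaluronan receptor that also stands among the mesenchymal markers, averaged 10.75 ± 0.26 in DoxR-v and 10.39 ± 0.16 in DoxR cells, against 7.27 ± 0.02 in WT cells, and was not detected in WT-v cells. MT2A, a metallothionein, was lower in DoxR-v vs DoxR (-2.64). S100A6 was lower in DoxR vs WT (-1.497), DoxR-v vs WT (-0.83) and WT-v vs WT (-1.39), and so lay opposite to FOS in the resistant cells. TIMP1 was lower in DoxR-v vs WT (-0.74) and WT-v vs WT (-1.76). The called AP-1 targets thus went both ways. Of 7 tested EGR target genes, 1 was higher and 1 lower in DoxR vs WT, and 1 and 1 in DoxR-v vs WT (3 and 1 under median scaling). The counts were 3 and 1 in WT-v vs WT, and 2 and 1 between DoxR-v and DoxR cells. Among the 3 was THBS1 (0.67), which was detected on no WT-v and no WT array, so that call lies at background. CDK5R1, the neuronal activator of CDK5 that EGR1 induces in rat neuronal cells, averaged 7.73 ± 0.12 in DoxR-v, 6.97 ± 0.13 in DoxR, 7.78 ± 0.21 in WT-v and 6.86 ± 0.12 in WT cells. It was thus higher than in WT cells in DoxR-v (0.87) and WT-v cells (0.92), and higher in DoxR-v vs DoxR (0.76). THBS1, an inhibitor of vessel growth, was at least 1.33-fold lower in DoxR-v vs DoxR, and VEGFA, its counterpart that promotes vessel growth, was lower in DoxR-v vs WT (-1.90) and DoxR vs WT (-1.55).

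**Figure D5:**
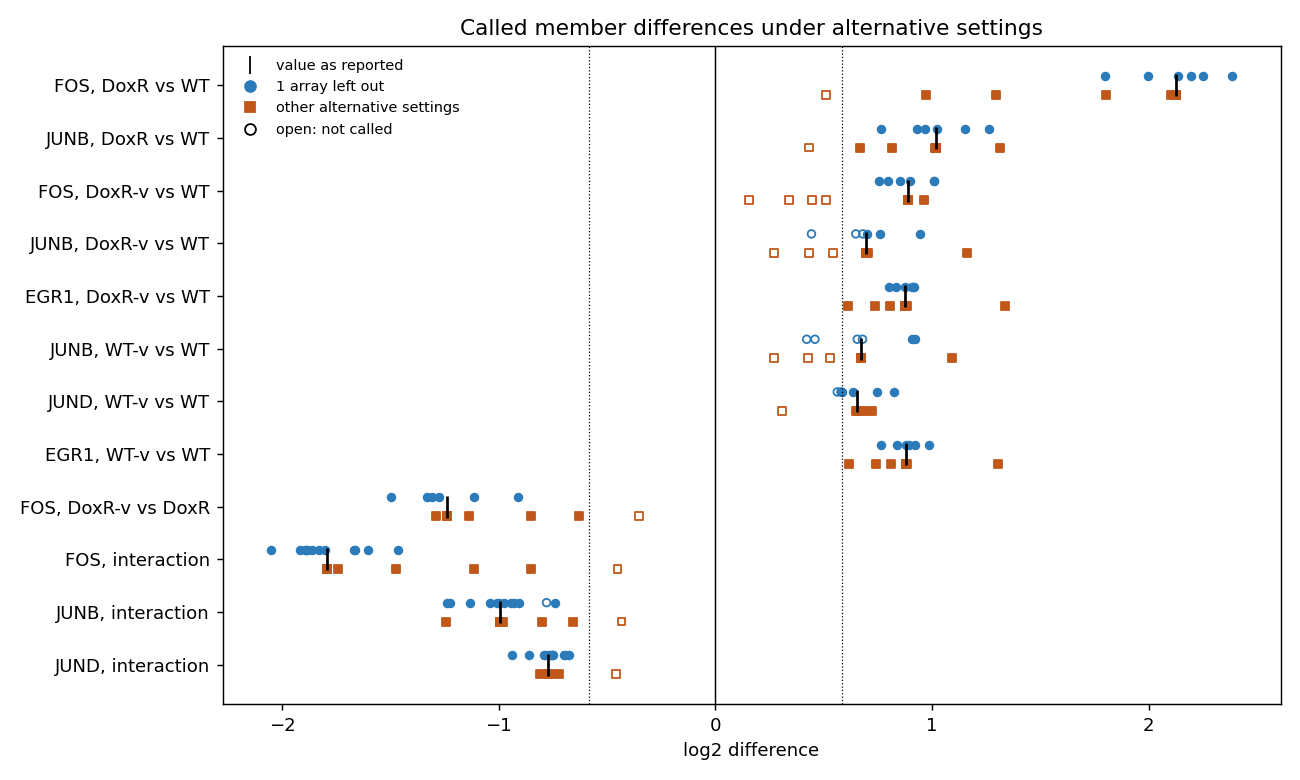
Each member difference that was called (log2, horizontal axis) as reported (black line), with 1 array left out (blue circles) and under other settings (orange squares); open symbols were not called and dotted lines mark a fold change of 1.5. Both EGR1 differences were called in every setting shown, and the JUNB difference between WT-v and WT cells was called in 2 of the 6 fits with 1 array left out.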

How the data were processed

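RNA from 12 samples of SK-N-SH cells was measured on Illumina HT-12 v4 arrays, with groups and replicates as labelled. The table deposited by the authors held the non-normalized intensity of 47323 probes, together with the deposited detection p-value of every probe and array. Whether a scanner background was subtracted first is unknown. The authors also deposited a normalized intensity table, for which the submitters' notes name lumi 2.13.3 and R 3.0.1, and it served only as an alternative. The series had no depth in reads, and the number of arrays limits the precision.

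Background correction used the nec function of limma 3.58.1 (R 4.3.3), which takes the noise from the detection p-values (offset 16). Arrays were quantile normalized and levels set to log2. Tests covered the 21609 probes detected (p-value below 0.01) by 1 array or more. The limma model held 1 mean per group over the 12 arrays with eBayes moderation, and p-values were adjusted over these probes by Benjamini-Hochberg. Calls needed an adjusted p below 0.1 plus a change of more than 1.5-fold, as in the study's methods. A fold against a group in which no array detected the probe is a bound. Its denominator averages over arrays, in log2, the larger of the probe's level and the dimmest detected level. The fit was tested on simulated data.

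Probes were named from the platform annotation, which gave 1 symbol for 30113, several for 8 and none for 17202, and a list gene was read by the tested probe of highest mean level. Members were named in every comparison, and list genes were taken from the 4 with the smallest adjusted p in a list and comparison, not all of which are printed. For the 3 members with the widest range of group means, the 3 nearest genes were named. The members and lists were chosen with earlier results of these data known. Alternatives were the replicate number as a block, median scaling, no background correction, the authors' values, another offset, other filters, other fits, a stricter threshold, leaving out each array and, for lists, the mean over the probes of a gene. Promoter sequences were those of RefSeq (GRCh38.p14).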

Additional observations from a re-analysis of the deposited data

Results flagged for a closer look

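For 4 members the difference that went with vorinostat was not the same in doxorubicin-resistant and parental cells, by the interaction test of the limma fit at an adjusted p below 0.1. The difference in resistant cells minus that in parental cells was -1.79 for FOS (adjusted p = 0.00214), -0.99 for JUNB (adjusted p = 0.0429), -0.77 for JUND (adjusted p = 0.0112) and -0.57 for EGR1 (adjusted p = 0.0402), on the log2 scale. These are 4 of 7 member probes, against 44% of all probes at that adjusted p, so such a difference was not particular to the members. FOS was detected on 0 of 3 WT arrays and 1 of 3 WT-v arrays, so its difference in parental cells lies near background and the size of its interaction is not well measured. For FOS, JUNB and JUND, DoxR-v cells had the lower mean against DoxR cells, and WT-v cells the higher mean against WT cells. In DoxR-v against DoxR cells only the FOS difference was called, and those of JUNB (-0.32) and JUND (-0.12) were not. In WT-v against WT cells the JUNB and JUND differences were called and that of FOS was not. For EGR1 the mean was higher in DoxR-v than in DoxR cells, a difference that was not called, and higher in WT-v than in WT cells. All 4 use the same 12 arrays, and the WT arrays, on which JUNB ranged from 6.19 to 7.18, enter each of them.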

How the results depend on the processing

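Over the member probes, 675 values under an alternative kept their direction and their side of the threshold, 32 lost the call, 16 gained it and 26 changed sign, all of the last uncalled. The 675 include differences that were uncalled as reported and stayed so. The 32 come from the called differences alone, so these counts are not a share of calls kept. EGR1 was called in DoxR-v vs WT and WT-v vs WT under every alternative (0.61 to 1.34 and 0.62 to 1.30, and 0.80 to 0.92 and 0.76 to 0.99 with 1 array left out). FOS was called in each fit that left out 1 array in DoxR vs WT (1.80 to 2.39), DoxR-v vs DoxR and the interaction.

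The count of member probes called was 5 in DoxR-v vs WT and 5 in WT-v vs WT under median scaling. Of all 21609 probes, 6035 were then called higher and 884 lower in DoxR-v vs WT, and 5966 and 1073 in WT-v vs WT. The member count in DoxR-v vs WT was 1 without background correction and with an offset of 50. Over all probes 1061 were higher and 1134 lower in the former, and 1501 and 1514 in the latter. With the authors' normalized values the member count was 0 in DoxR vs WT, 1 in DoxR-v vs WT, 0 in DoxR-v vs DoxR and 1 in the interaction. All probes called higher and lower were then 1015 and 1057, 609 and 714, 912 and 926, and 1673 and 1634, in that order. With these values 4 member probes in DoxR vs WT and 2 in DoxR-v vs DoxR had an adjusted p below 0.1 (4 and 2 at an unadjusted p below 0.05). The share of all probes on adjusted p alone was not counted there. FOS was 0.51 in DoxR vs WT. The cause was not tested. With 1 array left out the count lay between 2 and 3 for DoxR vs WT, 2 and 4 for DoxR-v vs WT, 1 and 4 for WT-v vs WT (1 without WT replicate 1 or WT replicate 2) and 2 and 4 for the interaction. It stayed at 1 for DoxR-v vs DoxR and at 0 for DoxR-v vs WT-v.

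Under median scaling JUN became 0.098 in DoxR vs WT, 0.045 in DoxR-v vs WT and 0.30 in WT-v vs WT, JUND 0.0021 and IER2 0.097 in DoxR-v vs DoxR, EGR1 0.033 and IER2 0.019 in DoxR-v vs WT-v, and IER3 -0.21 in the interaction. With the authors' values JUNB was -0.0011 in DoxR-v vs WT-v. With 1 array left out the sign changed within the ranges of JUN in WT-v vs WT (-0.22 to 0.0030), IER2 in DoxR-v vs DoxR (-0.18 to 0.091), IER2 (-0.17 to 0.046), EGR1 (-0.11 to 0.11) and JUNB (-0.21 to 0.24) in DoxR-v vs WT-v, and IER3 in the interaction (-0.21 to 0.21).

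Called probes were 51.2%, 51.0% and 53.3% higher in DoxR vs WT, DoxR-v vs WT and WT-v vs WT, and 73.1%, 87.2% and 84.8% under median scaling. With scaling over probes detected on all arrays, chosen after seeing the data, they were 38.5%, 31.3% and 35.5%, and all probes shifted by -0.17, -0.19 and -0.18. FOS in DoxR-v vs WT (0.51), JUND in WT-v vs WT (0.31) and JUND in the interaction (-0.46) were then not called. Over all probes, 1656 were higher and 1639 lower in DoxR vs WT without background correction and 1015 and 1057 with the authors' values, against 3282 and 3133. In DoxR-v vs WT 1501 and 1514 were called with an offset of 50 and 6035 and 884 under median scaling, against 2457 and 2364. No pairing by replicate number was seen in the deviations of arrays from their group means. Deviations of same-numbered arrays correlated at -0.33 to 0.17 and those of different-numbered arrays at -0.19 to 0.27. Of 12 arrays 2 correlated best with their own number. Whether same-numbered samples were handled together was not tested. With the replicate block 3282 probes were higher and 3129 lower in DoxR vs WT, against 3282 and 3133 without it, and the counts of member calls were unchanged. FOS in WT cells lay below detection, so signal over background limits its fold there.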
